A study of Mus musculus with 32 samples.

Results

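The genes described here are TRAF adaptor proteins and NF-κB transcription factors, which carry signals from CD30 and related receptors of the TNF receptor family into the nucleus. The rule named 10 genes, Traf1, Traf2, Traf3, Traf5, Nfkb1, Nfkb2, Rel, Rela, Relb and Nfkbia, and took every probe set that carried one of these symbols in the annotation table of the array. It gave 15 of 45037 probe sets, for 8 of the 10 genes, and the leading ones below are 1423602_at (Traf1), 1451233_at (Traf2), 1448861_at (Traf5), 1425902_a_at (Nfkb2), 1420710_at (Rel), 1419536_a_at (Rela), 1417856_at (Relb) and 1420088_at (Nfkbia). Traf3 and Nfkb1 were not analysed here. A probe set is a group of short probes on the array whose signals are given as 1 value. Traf1, Traf5 and Nfkb2 had 2 probe sets each, Nfkbia had 5, and Traf2, Rel, Rela and Relb had 1 each. The genes lie on mouse chromosomes 2 (Traf1 and Traf2), 1 (Traf5), 19 (Nfkb2 and Rela), 11 (Rel), 7 (Relb) and 12 (Nfkbia). For each gene the probe set with the highest mean over all arrays was taken as leading, and the others stand beside it. All 15 probe sets passed the filter on low values in all comparisons, and none had a negative value on any array.

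The mice carried a transgene for CD30L, the ligand of CD30, that was described as specific to T cells and overexpressed, and the sample titles name it CD2-CD30L. The controls were their littermates without it, here called wild type. All were C57BL/6 females aged 12 weeks, with 4 mice per genotype, and each mouse gave its thymus, spleen, mesenteric lymph nodes and peripheral lymph nodes. The 8 groups of 4 arrays are therefore whole organs of mixed cell types from 8 mice, and how many transgenic lines they came from is not given in the sources used here.

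TRAF proteins bind the tails of receptors such as CD30, CD40 and the lymphotoxin β receptor after ligand binding and pass the signal to kinases. In the classical branch the kinase complex marks the inhibitor IκBα, the product of Nfkbia, for destruction, which frees dimers that contain RelA or c-Rel. In the other branch, TRAF2 and TRAF3 with cIAP ligases hold down the kinase NIK, and loss of that brake lets the precursor made from Nfkb2 be processed and enter the nucleus with RelB. RelB and Nfkb2 are known for their place in B cell areas, dendritic cells and the stroma of lymphoid organs. Traf1, Nfkb2, Rel, Relb and Nfkbia are themselves known targets of NF-κB, so their transcripts are often read as a trace of the pathway's activity.

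Promoters are printed for 4 members that hold a match to the κB motif spelled GGG, any 2 bases, TT, any base and CC, searched on both strands, the kind of site NF-κB dimers prefer. Nfkb2 and Rel varied widely between tissues, whereas Traf2 and Nfkbia varied less, so the sequences stand for members of both kinds. Each window runs from 250 bases before to 50 bases after a gene start of RefSeq on GRCm38.p6, 5′ to 3′ on the gene's strand, and the capitals mark matches on either strand. They lie at chr19:46304487-46304786 (plus strand, the first of 3 Nfkb2 windows), chr11:23770920-23771219 (minus strand, Rel), chr2:25546891-25547190 (minus strand, Traf2) and chr12:55492598-55492897 (minus strand, Nfkbia).
Nfkb2: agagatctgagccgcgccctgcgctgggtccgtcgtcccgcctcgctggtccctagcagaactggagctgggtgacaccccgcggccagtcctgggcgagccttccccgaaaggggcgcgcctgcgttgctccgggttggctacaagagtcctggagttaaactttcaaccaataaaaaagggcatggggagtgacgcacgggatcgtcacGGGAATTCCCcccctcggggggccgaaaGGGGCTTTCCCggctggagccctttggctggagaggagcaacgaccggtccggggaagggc
Rel: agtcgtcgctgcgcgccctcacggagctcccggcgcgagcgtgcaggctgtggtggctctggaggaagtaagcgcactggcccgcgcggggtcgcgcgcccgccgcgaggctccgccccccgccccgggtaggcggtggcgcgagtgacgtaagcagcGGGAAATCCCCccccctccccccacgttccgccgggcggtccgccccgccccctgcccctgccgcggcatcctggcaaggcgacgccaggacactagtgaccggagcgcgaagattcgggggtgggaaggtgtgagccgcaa
Traf2: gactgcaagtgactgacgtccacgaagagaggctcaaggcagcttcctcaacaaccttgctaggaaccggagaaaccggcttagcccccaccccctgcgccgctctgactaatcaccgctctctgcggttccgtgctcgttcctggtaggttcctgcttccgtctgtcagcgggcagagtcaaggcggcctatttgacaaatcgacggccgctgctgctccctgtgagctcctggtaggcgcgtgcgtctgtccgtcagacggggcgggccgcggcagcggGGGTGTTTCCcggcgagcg
Nfkbia: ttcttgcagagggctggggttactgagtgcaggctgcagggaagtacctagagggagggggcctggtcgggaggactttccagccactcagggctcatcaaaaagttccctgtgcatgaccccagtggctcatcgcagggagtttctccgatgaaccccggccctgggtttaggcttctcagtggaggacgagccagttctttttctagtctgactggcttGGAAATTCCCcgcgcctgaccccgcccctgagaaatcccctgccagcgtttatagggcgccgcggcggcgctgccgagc
The Nfkb2 window held 3 matches, 2 of them overlapping, the Rel window held 2 overlapping ones, and the windows of Traf2 and Nfkbia held 1 each. RefSeq windows were matched for 8 member genes, among them Traf3, whose window held 1 match. The other 2 windows of Nfkb2 overlap and share 1 match, and the windows of Traf1, Traf5 and Rela held none of these letters. Relb and Nfkb1 are named only. Of all 32851 promoter windows 4.79% held a match. A match is a description of letters, not a binding site.

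Marker genes fitted the tissue labels. The mean log2 level of the thymocyte markers was 11.31 to 11.55 on thymus arrays and at most 7.19 elsewhere, and that of the spleen markers was 9.42 to 9.91 on spleen arrays and at most 7.49 elsewhere. The lymph node markers averaged 8.94 to 9.81 on node arrays and at most 6.09 elsewhere. Some arrays stood apart. Exocrine pancreas transcripts averaged 12.52 to 13.21 on 3 mesenteric node arrays (transgenic mice 1 and 3, wild type mouse 2) against 4.98 to 5.32 on the other 5, and skeletal muscle transcripts averaged 7.32 to 10.04 on 3 peripheral node arrays (transgenic mouse 1, wild type mice 1 and 3) against 5.00 to 5.27 on the other 5. The thymus of wild type mouse 2 had muscle transcripts at 7.54, against 5.27 to 5.66 on the other thymuses. The spleens of wild type mice 1 and 4 had pancreas transcripts at 7.04 and 6.35, against 5.11 to 5.55 on the other spleens. The ratio of 3′ to 5′ signal of Actb, a sign of RNA quality, was 2.83 to 3.58 on the spleen arrays of the mice numbered 1 and 2 and 1.65 to 1.85 on those of mice 3 and 4. The probe set of Tnfsf8, the gene for CD30L, did not pass the test between genotypes in any tissue, with log2 differences between -0.10 and 0.07 and adjusted p of 0.89 to 0.98, and whether it reads the transgene is not given in the sources used here.

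Most members differed between tissues, and none passed the test between genotypes. Relb, Traf5, Nfkb2, Traf1 and Rel were lowest in thymus and higher in spleen and lymph nodes, with log2 differences of thymus from peripheral node of -1.27 to -2.24. Rela showed a smaller gap in the same direction, and Traf2 was lowest in spleen. Nfkbia changed little by its leading probe set, while others of its probe sets were lower in thymus than in peripheral node. Mesenteric and peripheral nodes did not differ past the threshold in any member. Levels of a tissue below are log2 intensities after 16 was added and all 32 arrays were brought to 1 distribution, given as the lowest, median and highest of 8 arrays. Levels of different genes cannot be set against each other on an array. In whole organs, fewer cells of a type and less RNA per cell cannot be told apart.

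**Figure D1:**
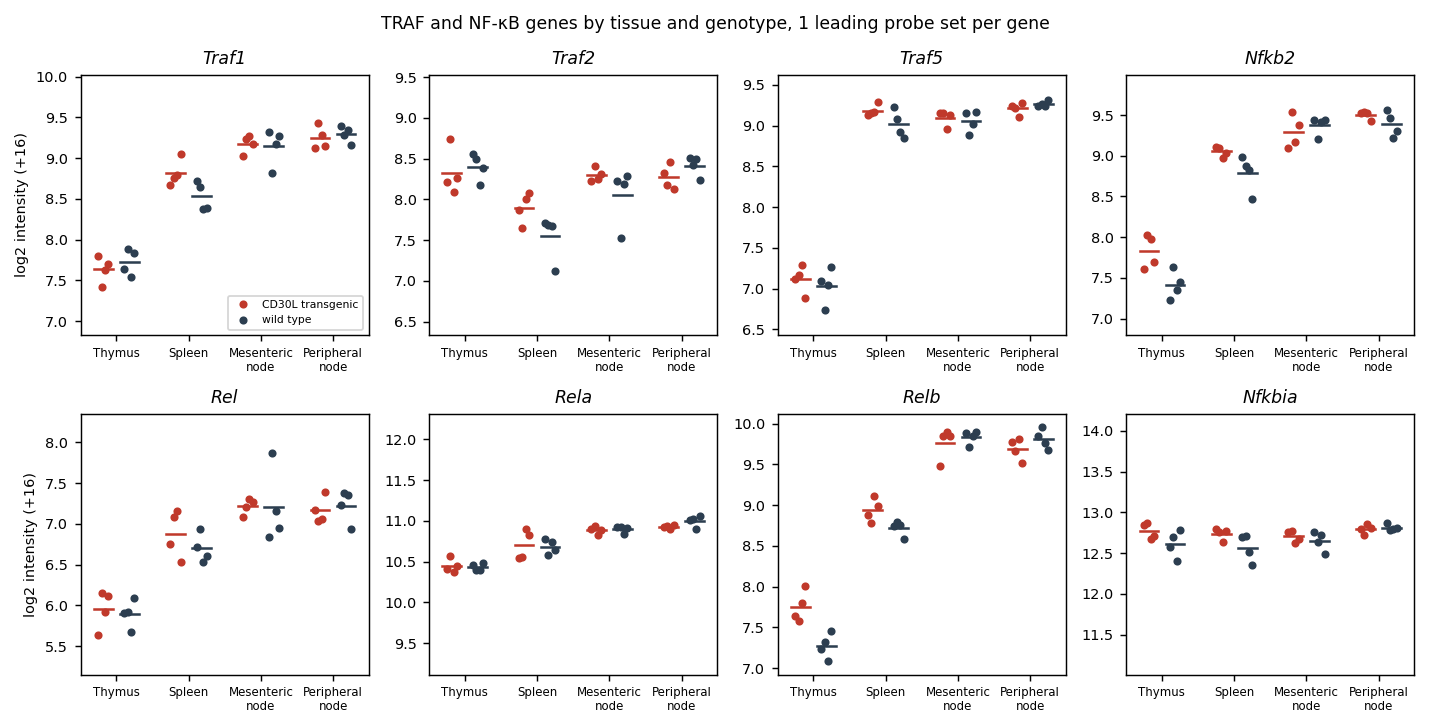
Log2 intensity (16 added, all 32 arrays normalised together) of the leading probe set of each gene on the y axis, by tissue on the x axis, with CD30L transgenic mice in red left of wild type mice in a dark colour; each point is 1 array and bars are the means of 4. Relb, Traf5, Nfkb2, Traf1 and Rel are lowest in thymus, and Nfkbia lies between 12.35 and 12.87 in every tissue.

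Among the adaptors, Traf5, which binds CD30, CD40 and other receptors of the family, showed the largest gap. Its log2 level was 6.73, 7.10 and 7.28 in thymus, 8.84, 9.14 and 9.29 in spleen, 8.88, 9.14 and 9.17 in mesenteric node and 9.11, 9.24 and 9.32 in peripheral node. Every thymus lay below every array of the other tissues. The log2 difference of thymus from peripheral node was -2.17 ± 0.08 (SE, n = 8 mice, adjusted p 6.7e-08, 4.49-fold lower), and spleen, mesenteric node and peripheral node did not differ from one another past the threshold. Its other probe set, 1447682_x_at, gave smaller gaps of -1.12 ± 0.12 for thymus and -0.33 ± 0.12 for spleen against peripheral node, and passed the test in both (adjusted p 3.1e-05 and 0.048). The second of these calls was lost without any 1 of 6 of the 8 mice, transgenic mice 1, 2 and 3 and wild type mice 1, 3 and 4, with adjusted p of 0.051 to 0.11.

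Traf1, an adaptor without a RING domain that NF-κB itself induces and that partners TRAF2, stood in a graded order. Its log2 level was 7.42, 7.67 and 7.89 in thymus, 8.37, 8.69 and 9.05 in spleen, 8.81, 9.21 and 9.32 in mesenteric node and 9.13, 9.28 and 9.43 in peripheral node. Thymus lay apart from the rest, and spleen lay below peripheral node on every array. Against peripheral node the log2 difference was -1.59 ± 0.10 in thymus and -0.60 ± 0.08 in spleen (SE, n = 8 mice, adjusted p 9.2e-07 and 5.6e-04), and mesenteric and peripheral node did not differ past the threshold (-0.11 ± 0.07, adjusted p 0.44). The other Traf1 probe set, 1445452_at, correlated with the leading one at only r = 0.63 over the 32 arrays. It was lowest in thymus too (-1.08 ± 0.16 against peripheral node), but its mean was highest in spleen (8.40, against 7.87 in mesenteric node and 8.17 in peripheral node), with no difference past the threshold between those tissues, so the probe sets of Traf1 disagree on spleen.

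Traf2, the ubiquitin ligase adaptor that joins CD30 to both branches, had another order. Its log2 level was 8.09, 8.32 and 8.74 in thymus, 7.13, 7.70 and 8.08 in spleen, 7.53, 8.24 and 8.40 in mesenteric node and 8.13, 8.37 and 8.51 in peripheral node. The spleens lay below every thymus and every peripheral node. Thymus was higher than spleen by 0.64 ± 0.13 (1.56-fold, higher in 8 of 8 mice, adjusted p 0.0020), and spleen was lower than peripheral node by a log2 difference of -0.62 ± 0.08 (adjusted p 4.3e-04) and than mesenteric node by -0.45 ± 0.14 (adjusted p 0.025). The last of these calls was lost without transgenic mouse 2 or without wild type mouse 1, 3 or 4 (adjusted p 0.052 to 0.069). Thymus, mesenteric node and peripheral node were not told apart (thymus minus peripheral node 0.02 ± 0.11, 95% interval -0.22 to 0.26).

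Of the NF-κB subunits, Relb, the partner of the processed Nfkb2 product, varied most. Its log2 level was 7.09, 7.52 and 8.01 in thymus, 8.58, 8.79 and 9.12 in spleen, 9.48, 9.85 and 9.90 in mesenteric node and 9.51, 9.77 and 9.95 in peripheral node. Thymus, spleen and the nodes formed separate bands. Thymus was 4.71-fold lower than peripheral node (log2 difference -2.24 ± 0.09, adjusted p 9.2e-08), spleen was 1.89-fold lower than peripheral node (-0.92 ± 0.07, adjusted p 1.9e-05), and both gaps were seen in 8 of 8 mice. Mesenteric and peripheral nodes did not differ past the threshold (0.05 ± 0.08, adjusted p 0.78).

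Nfkb2 followed the same order. Its log2 level was 7.23, 7.63 and 8.03 in thymus, 8.47, 8.98 and 9.11 in spleen, 9.10, 9.39 and 9.54 in mesenteric node and 9.22, 9.49 and 9.56 in peripheral node. Thymus stood below all other arrays, and every spleen lay below every peripheral node. The log2 difference from peripheral node was -1.82 ± 0.08 in thymus (3.53-fold lower, adjusted p 1.6e-07) and -0.52 ± 0.07 in spleen (1.44-fold lower, adjusted p 5.1e-04). For the other probe set, 1429128_x_at, these differences were -0.95 ± 0.10, which passed the test, and -0.17 ± 0.09, which did not (adjusted p 0.15).

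Rel, which encodes c-Rel and acts in activated lymphocytes, had a log2 level of 5.63, 5.91 and 6.15 in thymus, 6.53, 6.74 and 7.16 in spleen, 6.84, 7.18 and 7.87 in mesenteric node and 6.93, 7.20 and 7.40 in peripheral node. Thymus lay below all other arrays, while spleen overlapped the nodes. Against peripheral node the log2 difference was -1.27 ± 0.11 in thymus and -0.40 ± 0.12 in spleen (adjusted p 7.9e-06 and 0.023), and without transgenic mouse 1 or wild type mouse 3 the gap between spleen and peripheral node missed the threshold (adjusted p 0.061 and 0.057). Rela, the subunit of the classical dimer, had a level of 10.37, 10.42 and 10.57 in thymus, 10.55, 10.69 and 10.90 in spleen, 10.83, 10.91 and 10.93 in mesenteric node and 10.90, 10.94 and 11.06 in peripheral node. Its thymus and node arrays did not overlap, yet the gap was small, with -0.52 ± 0.06 for thymus and -0.27 ± 0.08 for spleen against peripheral node (adjusted p 4.1e-05 and 0.020). The smaller of these, between spleen and peripheral node, missed the threshold without transgenic mouse 1, transgenic mouse 2 or wild type mouse 2, with adjusted p of 0.054 to 0.061.

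Nfkbia, the inhibitor that holds the classical dimers in the cytoplasm, was nearly level. Its leading probe set had a log2 level of 12.40, 12.70 and 12.87 in thymus, 12.35, 12.70 and 12.79 in spleen, 12.49, 12.70 and 12.78 in mesenteric node and 12.72, 12.80 and 12.87 in peripheral node. All tissues overlapped, and the log2 difference of thymus from peripheral node was -0.11 ± 0.07 (adjusted p 0.20). When arrays were set to a common median instead, the same difference was -0.48 and passed the test (adjusted p 0.0030). Of its other probe sets, 1438157_s_at, 1448306_at and 1449731_s_at were lower in thymus than in peripheral node by log2 differences of -0.32 to -0.47 and passed the test, while 1420089_at was not (-0.13 ± 0.08, adjusted p 0.18).

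The range of tissue means placed the members widely apart among the 27022 probe sets tested, whose median range was 0.66 on the log2 scale. Relb stood at the 93.1 percentile of that range, Traf5 at 92.2, Nfkb2 at 88.5, Traf1 at 85.2 and Rel at 78.7. Traf2 was at 48.2, Rela at 38.4 and Nfkbia at 3.43. The other probe sets of a gene could stand elsewhere, with those of Nfkbia at 8.30 to 32.7, Nfkb2 1429128_x_at at 66.8, Traf5 1447682_x_at at 73.6 and Traf1 1445452_at at 79.5. The place of Nfkbia thus depends on the probe set, and its thymus difference on the scaling given above.

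Between tissues, a probe set was called where the Benjamini-Hochberg adjusted p of limma, a linear model with pooled variances fitted to within-mouse differences, was under 0.05. In thymus against peripheral node 12 of 15 member probe sets were called, all lower, where 31.3% of all probe sets were called lower and 34.2% higher. Thymus against mesenteric node gave 12 lower, where 29.6% of all were lower. Thymus against spleen gave 9 lower (27.5% of all) and 1 higher, Traf2 (33.6% of all). Spleen against peripheral node gave 9, all lower, where 24.3% of all were lower. The count was 4 without the 3 mice whose peripheral nodes held muscle transcripts, and 5 in mice 3 and 4 alone. Spleen against mesenteric node gave 5 lower, where 22.3% of all were lower. Mesenteric against peripheral node gave 0 of 15, where 5.15% of all were called in either direction, and 3 members had an unadjusted p under 0.05, where 20.4% of all did. The medians over the 15 were -0.95 (thymus), -0.33 (spleen) and -0.12 (mesenteric node) against peripheral node, beside 0.02, -0.04 and -0.02 over all probe sets.

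**Figure D2:**
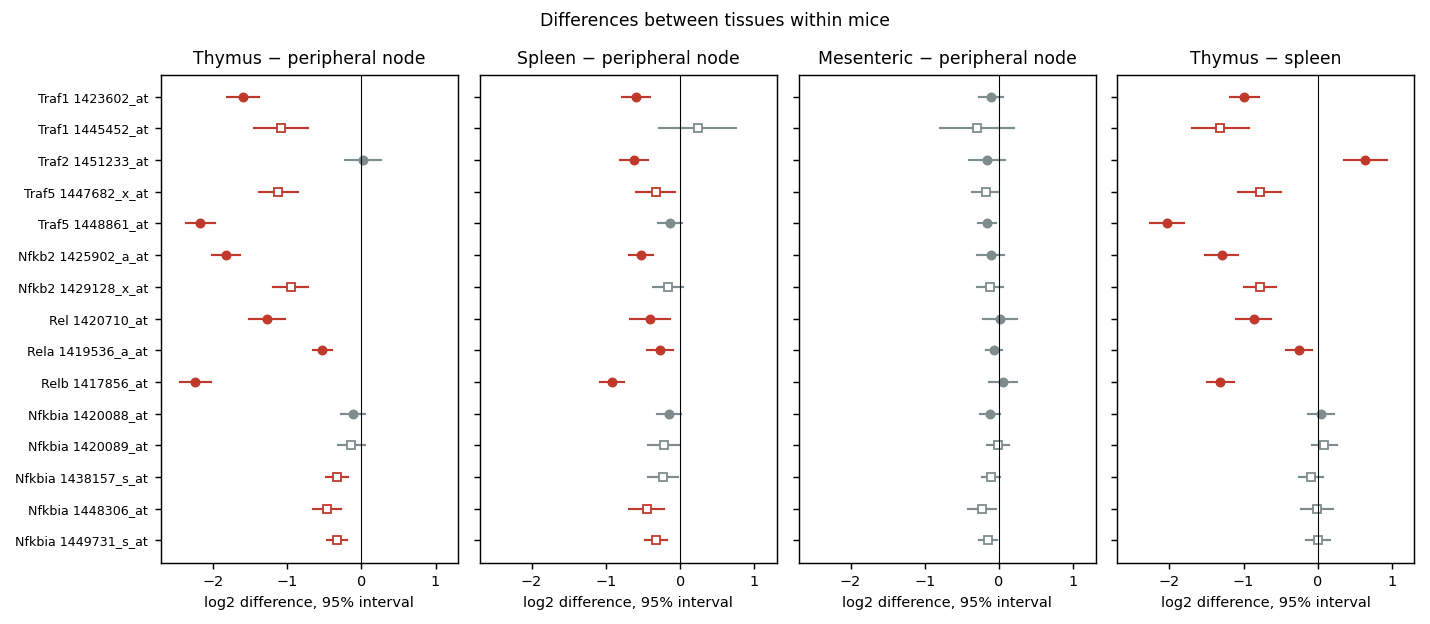
Log2 differences between tissues within mice (x axis, both genotypes, 8 mice) for the 15 probe sets (y axis), with 95% intervals; filled circles are leading probe sets, open squares the others, red means adjusted p under 0.05 and grey not. Relb reaches -2.24 in thymus against peripheral node, while Traf2 is the only member in red above 0 in thymus against spleen and no member is red between the nodes.

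Cell type markers moved between the same tissues. In thymus against peripheral node, 8 of 8 tested B cell markers were called lower (median log2 difference -4.60), as were 7 of 8 dendritic cell markers (-2.01) and 8 of 8 stromal markers (-1.63), while 9 of 9 T cell markers were called higher (1.33). In spleen against peripheral node, 2 of 8 B cell markers were called higher and 1 lower (median 0.08), 9 of 9 T cell markers were called lower (-1.30), and 5 of 8 dendritic cell markers were lower and 2 higher (-0.41). Stromal markers had 4 of 8 lower and 1 higher (-0.83), while 5 of 6 erythroid markers (5.49) and 7 of 7 neutrophil markers (2.59) were higher. The part of cell makeup in the members' differences was not tested.

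No member passed the test between genotypes in any tissue. By limma, 0 of 15 probe sets were called in thymus, spleen, mesenteric node or peripheral node, where 0.00370%, 0.0111%, 0% and 0.0370% of all probe sets were called, and 0 in the mean of the 4 tissues of each mouse, where 0.0703% were. At an unadjusted p under 0.05 there were 2 members in thymus (7.26% of all probe sets), 0 in spleen (8.56%), 0 in mesenteric node (4.71%), 0 in peripheral node (8.36%) and 1 in the mean over tissues (7.38%). The log2 differences of transgenic from wild type over the 15 ran from -0.09 to 0.47 in thymus, 0.02 to 0.35 in spleen, -0.26 to 0.24 in mesenteric node and -0.24 to 0.20 in peripheral node. Their standard errors were 0.07 to 0.35. Member levels and genotype differences within 1 tissue in the following are normalised over the 8 arrays of that tissue. Mean marker levels, means over tissues, tissue pairs and correlations are from all arrays normalised together.

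**Figure D3:**
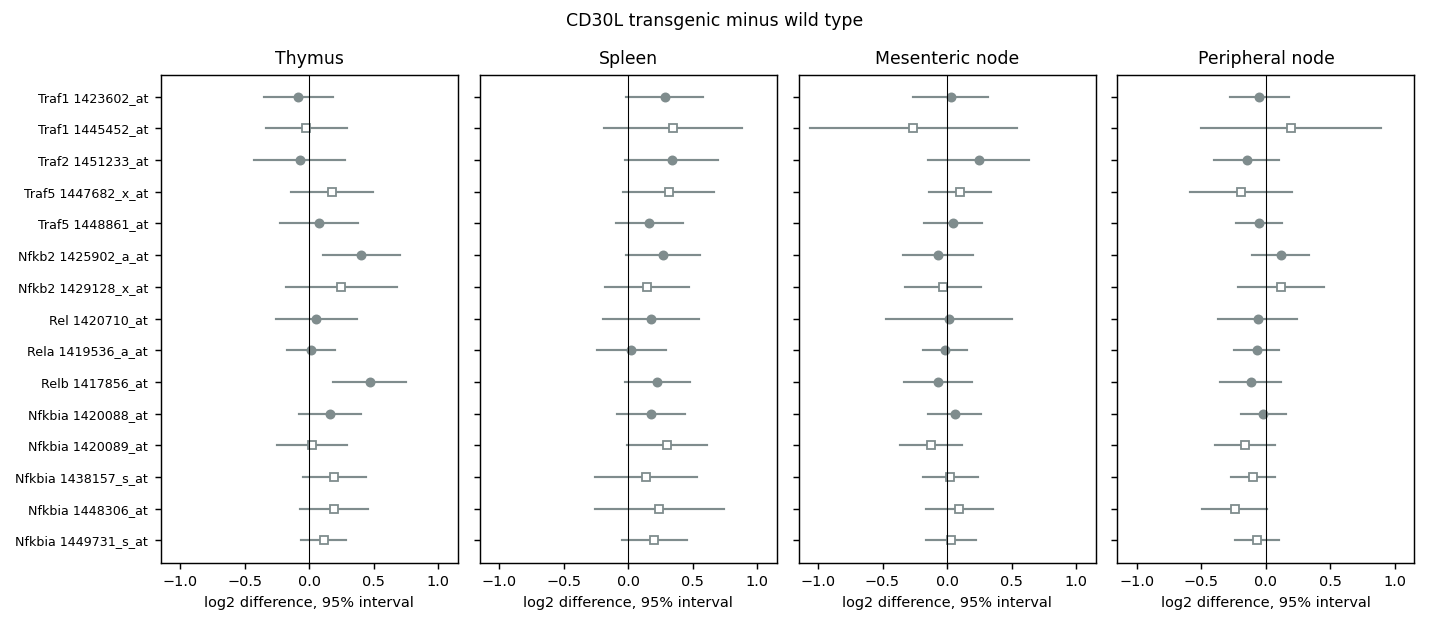
Log2 difference of CD30L transgenic from wild type (x axis, 4 mice each) for the 15 probe sets (y axis) in each tissue, with 95% intervals; filled circles are leading probe sets and open squares the others, and all are grey because none had an adjusted p under 0.05. In thymus the intervals of Relb (0.19 to 0.75) and Nfkb2 (0.11 to 0.70) lie above 0, and in spleen all 15 points lie at 0.02 or above, against 11 of 15 above 0 with no normalisation between arrays.

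Relb in thymus had the smallest p of the members in the 4 tissues. Its log2 level was 7.60, 7.54, 7.77 and 7.97 in transgenic thymuses, against 7.21, 7.29, 7.07 and 7.42 in wild type thymuses. The genotypes did not overlap, which was so for 2.54% of all probe sets in the direction of higher. The log2 difference was 0.47 ± 0.12 (SE, n = 4 each, 1.38-fold, p 0.0047, adjusted p 0.57), and the adjusted p lay between 0.054 and 1.0 over 20 other settings. Nfkb2 read 7.58, 7.98, 7.94 and 7.66 in transgenic thymuses, against 7.21, 7.60, 7.33 and 7.41 in wild type thymuses. These overlapped narrowly, with a difference of 0.40 ± 0.13 (p 0.014, adjusted p 0.64, 0.19 to 1.0 over the other settings). The other Nfkb2 probe set gave 0.25 ± 0.19 (adjusted p 0.79). Neither gene passed the test over all probe sets.

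Marker levels of other cell types are set beside these values. The mean log2 levels of the B cell markers are from all arrays normalised together, unlike the Relb and Nfkb2 values. They were 7.31, 6.70, 6.64 and 6.91 in transgenic thymuses and 6.43, 6.34, 6.44 and 6.62 in wild type thymuses. The genotypes did not overlap, by a narrow margin of 6.64 against 6.62. Of the 6 B cell markers tested in thymus limma called 0, and 5 had an unadjusted p under 0.05, with a median difference of 0.63. Of 8 dendritic cell markers 0 were called and 2 had an unadjusted p under 0.05, with a median of 0.25. Stromal markers had a median of 0.31 with 6 of 7 above 0, plasma cell markers 0.30 with 6 of 6, and macrophage markers 0.18 with 8 of 8, and in each of these lists 0 were called and 2 had an unadjusted p under 0.05. Other lists went the other way. Germinal centre B cell markers had a median of -0.14 with 1 of 5 above 0, and skeletal muscle markers -0.41 with 1 of 6. The muscle level was 7.54 on the thymus of wild type mouse 2, against 5.27 to 5.66 on the other thymuses. T cell markers had a median of -0.11 with 0 of 9 above 0, and thymocyte markers -0.09 with 0 of 8. In each of these lists 0 were called and 0 had an unadjusted p under 0.05. The Actb ratio was 2.25 and 2.23 in thymuses of transgenic mice 1 and 2, against 1.34 to 1.78 on the other 6 arrays. Without those arrays the difference was 0.61 ± 0.13 for Relb and 0.41 ± 0.14 for Nfkb2 (adjusted p 0.40 and 0.52). The part of RNA from these cell types in the differences was not tested.

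In thymus the leading probe sets of the remaining genes other than Nfkbia lay close to 0. Traf1 differed by -0.09 ± 0.12, Traf2 by -0.07 ± 0.15, Traf5 by 0.08 ± 0.13, Rel by 0.05 ± 0.14 and Rela by 0.01 ± 0.08 on the log2 scale, each with an adjusted p of 0.88 or more. The 5 Nfkbia probe sets ran from 0.02 to 0.19, and Traf1 1445452_at and Traf5 1447682_x_at were at -0.02 and 0.17. Their intervals leave room for changes of either sign.

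In spleen the members leaned one way without passing the test. All 15 log2 differences were above 0, against 14 with a common median and 11 with no normalisation between arrays, and their median was 0.23, against 0.17 and 0.03 under those settings. Of all probe sets 51.2% were above 0, with a median of 0.01. Without wild type mouse 4, 14 of 15 were above 0 and the median was 0.15. The members share mice and arrays, so this count is a description. Traf2, with the largest difference among leading probe sets, read 7.95, 7.73, 8.08 and 8.15 in transgenic spleens, against 7.79, 7.78, 7.77 and 7.24 in wild type spleens. The groups overlapped, and wild type mouse 4 was the low array. The difference was 0.34 ± 0.16 (adjusted p 0.60), and 0.20 ± 0.13 without wild type mouse 4 (adjusted p 0.92). Traf1 read 8.73, 8.82, 8.85 and 9.11 in transgenic spleens, against 8.78, 8.71, 8.44 and 8.45 in wild type spleens, a difference of 0.28 ± 0.13 (adjusted p 0.59). Here wild type mice 3 and 4 were low, and wild type mouse 1 lay within the transgenic range. Nfkb2 (0.27 ± 0.13), Relb (0.23 ± 0.11), Nfkbia (0.18 ± 0.12), Rel (0.18 ± 0.16), Traf5 (0.16 ± 0.11) and Rela (0.02 ± 0.12) followed, with adjusted p of 0.60 or more.

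The spleen differences were unequal between mice that also differed in the Actb ratio. In mice 1 and 2, 13 of 15 were above 0, with a median of 0.07 and a range of -0.12 (Rela) to 0.23. In mice 3 and 4, 15 of 15 were above 0, with a median of 0.34. In mice 1 and 2 the differences were 0.03 for Traf1, 0.06 for Traf2, 0.18 for Nfkb2 and 0.07 for Relb, and in mice 3 and 4 they were 0.54, 0.61, 0.36 and 0.38. A fit of mice 3 and 4 alone called no member. The spleen of wild type mouse 4 had the highest thymocyte marker level of the spleens (7.19, against 5.86 to 6.57 on the other 7), and 9 of 9 T cell markers had differences above 0 in spleen with a median of 0.28, of which 0 were called and 7 had an unadjusted p under 0.05. Germinal centre B cell markers had a median of 1.27 there, with 1 of 7 called, and plasma cell markers one of 0.57, with 8 of 8 above 0, 0 called and 5 at an unadjusted p under 0.05. Erythroid markers had a median of -0.55, with 0 of 6 above 0, 0 called and 2 at an unadjusted p under 0.05. Cell cycle markers had a median of -0.37 with 0 of 9 above 0, and spleen markers one of -0.16 with 0 of 8 above 0, with 0 called and 0 at an unadjusted p under 0.05 in both. Their part in the members' differences was not tested.

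In the lymph nodes no leading member leaned far. In mesenteric node 9 of 15 differences were above 0, against 13 with a common median or with no normalisation between arrays. Without wild type mouse 2, 5 of 15 were above 0. Traf1 1445452_at had the largest difference of the 15 there, at -0.26, while the leading Traf1 probe set was at 0.03. The largest difference among leading probe sets was that of Traf2 at 0.24 ± 0.17 (adjusted p 0.97). Its values were 8.07, 8.25, 8.09 and 8.15 in transgenic nodes, against 8.07, 7.36, 8.03 and 8.13 in wild type nodes. The low wild type array was that of mouse 2, 1 of the 3 arrays with pancreas transcripts. The same array had the lowest trimmed mean intensity of all arrays (106) and the largest share of negative values (18.4%). The part of these traits in the low value was not tested. Without that mouse the difference was 0.07 ± 0.08 (adjusted p 0.90). In peripheral node 3 of 15 were above 0, where 47.7% of all probe sets were, and the members' median was -0.07. This lean depended on the processing. With no normalisation between arrays 14 of 15 were above 0, with a median of 0.06. Without the 3 arrays with muscle transcripts 7 of 15 were above 0, with a median of -0.06. The Nfkbia probe set 1448306_at had the largest difference there (-0.24 ± 0.11, adjusted p 0.61), and among leading probe sets Traf2 was at -0.15 ± 0.11 and Relb at -0.12 ± 0.10 (adjusted p 0.77 and 0.81). The Nfkbia probe set 1438157_s_at was the only member there whose genotypes did not overlap, at 11.97, 11.98, 11.93 and 11.98 in transgenic nodes and 12.11, 12.06, 12.11 and 11.99 in wild type nodes (-0.10 ± 0.08, adjusted p 0.76), as were 2.92% of all probe sets in the direction of lower. Its companions overlapped between genotypes. Germinal centre B cell markers had medians of 0.43 in mesenteric node and 0.90 in peripheral node, with 7 of 7 above 0 in both. Limma called 0 of them in mesenteric node and 1 in peripheral node, and 5 and 6 had an unadjusted p under 0.05. Cell cycle markers had medians of 0.49 and 1.00, with 9 of 9 above 0 and at an unadjusted p under 0.05 in both. Plasma cell markers had medians of 0.18 and 0.37, with 7 and 8 of 8 above 0 and 3 and 5 at that p. T cell markers had medians of -0.10 and -0.18, with 1 and 0 of 9 above 0 and 0 and 4 at that p. Of the cell cycle, plasma cell and T cell markers 0 were called in either node. Their part in the members' differences was not tested.

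Averaged over the 4 tissues of each mouse, 14 of 15 members had a difference above 0, beside 52.4% of all probe sets, and the members' median was 0.07. Nfkb2 differed by 0.18 ± 0.06 (SE, n = 4 mice each, p 0.021, adjusted p 0.55) and did not overlap, as was so for 3.32% of all probe sets in the direction of higher. Relb differed by 0.13 ± 0.06 (adjusted p 0.72). These means hold the thymus and spleen values given above.

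Whether the transgenic effect differed between tissues was tested on the within-mouse differences. No member was called in any of the 6 pairs, where 0.00740% of all probe sets were called for thymus against spleen and 0% for the other 5 pairs. At an unadjusted p under 0.05 there were 4 members for spleen against peripheral node (7.58% of all), 3 for thymus against peripheral node (9.73%), 2 for thymus against mesenteric node (5.00%), 1 for spleen against mesenteric node (6.05%), and 0 for thymus against spleen (8.40%) and for mesenteric against peripheral node (5.35%). Relb had the smallest p, with an effect in thymus above that in mesenteric node by 0.55 ± 0.15 (p 0.0067, adjusted p 0.98) and above that in peripheral node by 0.60 ± 0.18 (adjusted p 0.39). Traf2 had an effect in spleen above that in peripheral node by 0.49 ± 0.16 (adjusted p 0.57). None of these passed the threshold, and the pairs share tissues and mice.

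The other genes of the pathway showed which parts shared the thymus gap. Among 12935 genes tested between thymus and peripheral node, 39.1% were called lower and 27.6% higher, with a median log2 difference of -0.10. The IκB proteins other than Nfkbia were all lower, 5 of 5, with a median of -0.94. They were led by Bcl3, a nuclear IκB protein that partners NF-κB homodimers (-2.81 ± 0.10, adjusted p 4.6e-08), Nfkbie (-1.06 ± 0.08, adjusted p 3.7e-06) and Nfkbid (-0.94 ± 0.10, adjusted p 4.6e-05). Of the receptors that bind TRAFs 8 of 12 tested were lower and 2 higher (median -0.51), led by Tnfrsf13c, the BAFF receptor of B cells (-4.05 ± 0.09), Tnfrsf1b, a receptor of TNF (-1.87 ± 0.06), and Tnfrsf13b (-1.28 ± 0.06), all with adjusted p of 1.9e-07 or less. Tnfrsf8, the gene for CD30, was not among those led by p and is given because it is the receptor of the transgene's product: it was higher in thymus than in peripheral node by 0.36 ± 0.12 (adjusted p 0.028).

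Known NF-κB target genes followed the receptors, with 17 of 21 tested lower, 3 higher and a median of -1.06. Cxcl13, the chemokine of B cell follicles, differed by -5.16 ± 0.16, Birc3, which encodes cIAP2, by -1.68 ± 0.06, and Ebi3 by -1.79 ± 0.08 (adjusted p 2.0e-08, 6.5e-08 and 2.0e-07). The ubiquitin ligases and deubiquitinases had 11 of 17 lower, 3 higher and a median of -0.35, led by Birc3, by Otulin, which trims linear ubiquitin chains (-0.77 ± 0.06, adjusted p 6.6e-06), and by Tnip1 (-0.68 ± 0.06, adjusted p 1.2e-05), and Birc3 and Tnip1 count in both lists. The kinases were mixed: of 11 in the IKK complex and above it, 4 were lower and 3 higher with a median of 0.08. Map3k8 (-1.25 ± 0.12) and Ikbkb (-0.68 ± 0.07) were lower and Tab1, a partner of the kinase TAK1, was higher (1.19 ± 0.08). Other TRAFs and their partners were mixed too, with 4 of 10 lower, 3 higher and a median of -0.06, as Traf4 (1.23 ± 0.07) and Traip (1.29 ± 0.08) were higher and Traf3ip2 (-1.18 ± 0.08) lower.

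**Figure D4:**
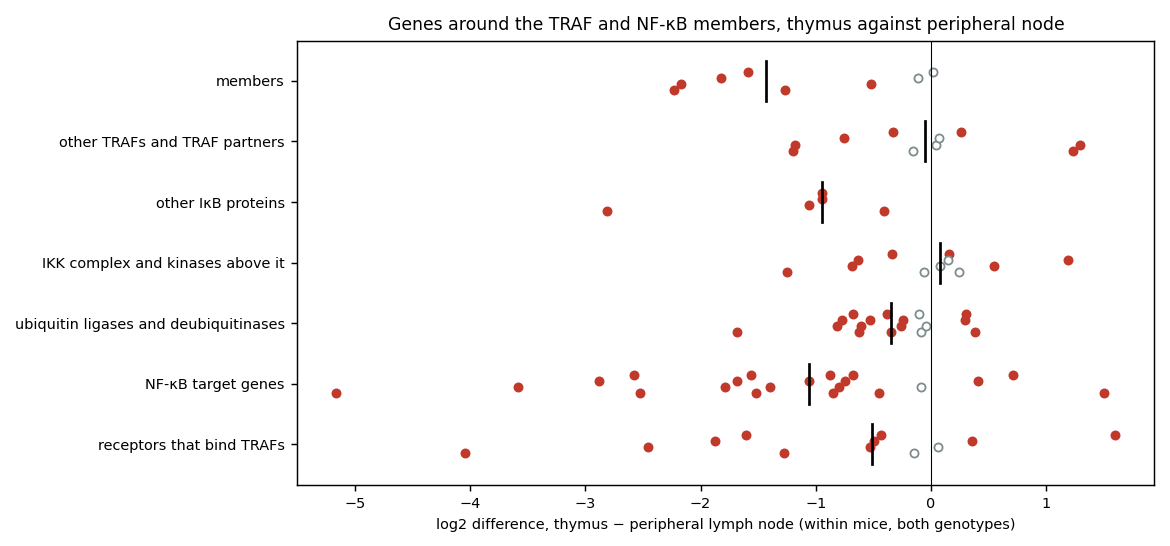
Log2 difference of thymus from peripheral lymph node (x axis, within mice, both genotypes, 1 probe set per gene) for the members and 6 lists of other pathway genes (y axis); each point is 1 gene, red with adjusted p under 0.05 and open grey otherwise, and black bars are list medians. The IκB proteins other than Nfkbia lie wholly below 0 (median -0.94), while the kinases and other TRAFs lie on both sides.

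In spleen against peripheral node the same lists gave 16 lower and 1 higher of 21 NF-κB targets (median -0.43), 8 lower and 1 higher of 13 receptors (-0.54), 3 lower of 5 IκB proteins (-0.33), 6 lower and 1 higher of 17 ubiquitin genes (-0.24), 4 lower and 3 higher of 11 kinases (-0.01) and 6 lower and 1 higher of 10 other TRAFs (-0.27). Over all 12969 genes 30.7% were lower and 16.1% higher, with a median of -0.11. The target genes were led by the chemokines Ccl22 (-4.04 ± 0.11) and Ccl5 (-1.26 ± 0.08) and by Il2ra, a chain of the interleukin-2 receptor (-1.24 ± 0.11).

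Between genotypes, limma called 0 genes of these 6 lists in any tissue or in the mean over tissues. At an unadjusted p under 0.05 there were 9 of 72 tested in thymus, 20 of 73 in spleen, 4 of 73 in mesenteric node, 7 of 73 in peripheral node and 13 of 73 in the mean, where 7.26%, 8.56%, 4.71%, 8.36% and 7.38% of all probe sets were. The units differ, as the lists hold 1 probe set per gene, that with the highest mean, and the shares are over all probe sets. In thymus the target genes had a median log2 difference of 0.22 with 19 of 21 above 0, and the receptors one of 0.26 with 9 of 12 above 0, beside a median of 0.04 over all genes. The genes with the smallest p there were Ltb, a lymphotoxin chain (0.57 ± 0.14, adjusted p 0.51), and Tnfrsf1b (0.39 ± 0.09, adjusted p 0.54), and Bcl3 led the IκB proteins (0.49 ± 0.15, adjusted p 0.63). In spleen the medians were 0.18 for targets, 0.14 for receptors and 0.22 for IκB proteins, beside 0.01 over all genes. Kinases, ubiquitin genes and other TRAFs had medians of -0.003, -0.01 and -0.04 in thymus and 0.01, 0.05 and -0.02 in spleen. In peripheral node the medians were -0.08 for targets (4 of 21 above 0), -0.14 for receptors (4 of 13) and -0.03 for IκB proteins (1 of 5), beside -0.03 over all genes. In mesenteric node they were -0.05 (6 of 21), 0.03 (8 of 13) and 0.03 (3 of 5), beside 0.02. The thymus and spleen values stand beside the B cell and T cell marker values given above.

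Over the 32 arrays the levels of most members ran together, as a description of arrays that share mice and tissues. The correlation of log2 levels was r = 0.96 between Relb and Nfkb2, 0.96 between Relb and Traf1, and 0.92 between Traf1 and Traf5. After the mean of each of the 8 groups was taken out, the same pairs had r = 0.32, 0.52 and 0.22. These 3 correlations were lower once group means were taken out. For Traf2 they were higher with Relb (r = -0.02 over the 32 arrays and 0.37 within groups), Nfkb2 (-0.10 and 0.52) and Traf1 (-0.01 and 0.42). With Traf5 (-0.29 and 0.27) and Rela (0.09 and 0.34) they were higher too, but with Rel (-0.15 and -0.23) and Nfkbia (0.49 and 0.42) they were lower. The within-group values include the low Traf2 arrays of wild type mouse 2 in mesenteric node and wild type mouse 4 in spleen. Nfkbia and Relb had r = 0.24 over the arrays and 0.06 within groups.

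The genes whose levels ran most like each member, by Pearson correlation over the 32 arrays among 12982 genes, were named by rank. For Relb these were Sting1 (0.986), Tmem176b (0.984) and Anxa3 (0.984), and for Nfkb2 they were Mdfic (0.974), Tnfrsf1b (0.974) and Retreg1 (0.974). Traf1 ran with Gadd45b (0.971), Mllt6 (0.969) and Ppdpf (0.967), and Traf5 with Haao (0.992), Sorl1 (0.991) and Nuak2 (0.991). For Rel the nearest were Nucb2 (0.945), Uap1l1 (0.931) and Dap (0.930), and for Rela they were Prelp (0.952), Myl12b (0.952) and Ppp1r18 (0.944). The nearest genes were less close for Traf2, with Ablim1 (0.888), Tecpr1 (0.879) and Mt3 (0.868), and for Nfkbia, with Ccm2 (0.766), Faap20 (0.753) and Cfap97 (0.742).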

How the data were processed

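Total RNA from each organ (RNeasy, 5 µg) was labelled with biotin and hybridised to Affymetrix mouse arrays, per the labels' protocols. The authors deposited 1 linear intensity per probe set and array, and how those intensities were summarised and scaled is not given in the sources used here. Of the values on an array 14.9% to 18.4% were negative, and trimmed means ran from 106 to 272.1.

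Negative intensities were set to 0, 16 was added and log2 taken, so a fold change of a low gene is understated. The 64 control probe sets were left out, which left 45037. Arrays were quantile normalised, over the 8 arrays of a tissue for the genotype tests and over all 32 arrays for levels, means over tissues and tissue pairs. The 40% of probe sets with the lowest mean were left out, and 27022 were tested in each comparison. Genotypes were compared within a tissue, and tissues as differences within each of 8 mice, with lmFit and eBayes of limma 3.58.1 in R 4.3.3 and Benjamini-Hochberg adjustment over all tested probe sets. The script was tested on simulated data.

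Symbols came from the platform annotation, in which 34945 probe sets had 1 symbol, 932 several and 9160 none. Text names all member probe sets, up to 3 genes of a list with the smallest p in a comparison, and the 3 genes most correlated with each leading probe set. A gene outside the members is read from the probe set with the highest mean. The members and lists were chosen with earlier results of these data known. Replicate numbers are shared by the genotypes, but the labels do not say that they pair mice, and the deviations of same-numbered samples correlated at r = -0.44 to 0.33, so no block was used. Animals were separate mice. Precision is limited by 4 mice a group. Other pseudocounts, scalings, filters, moderation, blocks, mice left out in turn and subsets were tried, and those without the pancreas or muscle arrays, with mice 3 and 4 alone, or without transgenic mice 1 and 2 were chosen after the data were seen.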

Additional observations from a re-analysis of the deposited data

Results flagged for a closer look

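Among 120 groups of 4 arrays (15 probe sets, 8 groups), 11 held a sample whose gap to the nearest of the others was large for the group's range by Dixon's test at the 95% level, and chance gives about 1 in 20, or 6. Member values are log2 intensities normalised within a tissue, and marker levels are from all arrays normalised together. In mesenteric node, Traf1 1445452_at was 6.63 in transgenic mouse 1 (the other 3 at 7.76 to 7.98) and Relb was 9.31 in the same mouse (9.69 to 9.74). Traf5 1448861_at was 8.80 in transgenic mouse 3 (at 8.98 or above), and Nfkbia 1449731_s_at was 11.44 there (11.53 to 11.54). Traf2 was 7.36 in wild type mouse 2 (8.03 to 8.13), Nfkb2 1425902_a_at was 9.04 there (9.25 to 9.27), and Rela was 10.72 in wild type mouse 3 (10.79 to 10.80). All 7 of these were low, and 6 of the 7 lay on the 3 arrays with exocrine pancreas transcripts at 12.5 or above. Of these, transgenic mouse 1 also had an Actb ratio of 3.10. Wild type mouse 2 also had the lowest trimmed mean intensity of all arrays (106) and the largest share of negative values (18.4%). The part of those transcripts, of the Actb ratio and of the low intensity was not tested. In spleen, Traf2 was 7.24 in wild type mouse 4 (7.77 to 7.79), the array with thymocyte markers at 7.19, and Nfkb2 1429128_x_at was 7.95 in transgenic mouse 3 (8.41 to 8.45). In peripheral node, transgenic mouse 4 was high for Traf5 1447682_x_at at 7.71 (7.47 to 7.50) and low for Nfkb2 1425902_a_at at 9.57 (9.67 to 9.68).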

How the results depend on the processing

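Between genotypes, 0 of 15 members were called under every alternative run, each mouse left out in turn included (0 to 0), and with a replicate block, which pairs mice by number, the count was also 0 in each comparison. The number of all probe sets called was less stable, with 0 to 58 in thymus (1 as reported), 0 to 224 in spleen (3), 0 to 3 in mesenteric node (0), 0 to 112 in peripheral node (10), 2 to 54 in the mean over tissues (19) and, for the differences of effect between tissues, 0 to 5 (0 to 2). The highest counts came from 1 fit of all 32 arrays (thymus, spleen), from no filter (mesenteric node) or from no normalisation (the others). Between tissues, spleen against mesenteric node gave 5 members as reported, 8 with 64 added before the log, 8 with a common median, 2 with no normalisation and 3 in wild type mice alone. Spleen against peripheral node gave 9 as reported, 14 with a common median, 4 without the 3 mice with muscle transcripts and 5 in mice 3 and 4 alone. The settings that name mice rest on fewer mice, and for the others the cause was not tested. With each mouse left out, the counts were 12 to 12 for thymus against peripheral node, 10 to 12 against mesenteric node and 10 to 10 against spleen, and 6 to 9 and 4 to 6 for spleen against peripheral and mesenteric node. Under the other settings the thymus counts were 11 to 14 against peripheral node, 8 to 13 against mesenteric node and 9 to 10 against spleen. Over all probe sets, spleen against peripheral node gave 11958 calls, and 5840 in mice 3 and 4 alone, spleen against mesenteric node 11792, and 6361 in wild type mice alone, and mesenteric against peripheral node 1392, with a range of 132 to 2548. Of 1662 member values between tissues under alternatives, 55 had the opposite sign, in 18 of 90 member comparisons, all of them not called as reported and of a size of at most 0.24. The turned value was called for 1, Nfkbia 1420088_at in thymus against mesenteric node (0.01, and -0.43 with a common median, adjusted p 0.0039), and the largest turned was Traf1 1445452_at in spleen against peripheral node (0.24, and -0.34 in mice 3 and 4 alone, adjusted p 0.087), causes not tested. Between genotypes 86 of 1453 values had the opposite sign, none of them called. No normalisation moved the median of all probe sets to -0.27 between mesenteric and peripheral node (-0.02 as reported), to 0.21 between spleen and mesenteric node (-0.03) and to 0.18 between thymus and mesenteric node (0.04). Of the values between tissues, 59 lost the call and 27 gained one without a change of sign.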

Other observations

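Gene groups outside the TRAF and NF-κB pathway stood apart between tissues in the same mice. In thymus against peripheral node 9 of 9 cell cycle markers were called higher, with a median log2 difference of 2.79, led by Kif11 (2.98 ± 0.09), Nusap1 (2.80 ± 0.09) and Top2a (3.13 ± 0.11). In spleen against peripheral node Mki67, a marker of cycling cells, was higher by 2.71 ± 0.18 (adjusted p 6.9e-06) and Cdk1 by 1.78 ± 0.13 (adjusted p 1.5e-05).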
